A study of Homo sapiens with 12 samples.

Results

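The genes described here are 9 genes of the IL-12, IL-18 and IL-10 axis of lymphocytes, taken by symbol from the deposited table of 17589 genes. They are the IL-12 receptor chains IL12RB1 and IL12RB2 with the transcription factor STAT4, the IL-18 receptor chains IL18R1 and IL18RAP, and the cytokine IL10 with its receptor chains IL10RA and IL10RB and the transcription factor STAT3. All 9 were listed in the table, and all 9 were among the 13657 genes kept for testing after genes with too few counts were removed. RNA-seq was made from YT cells, an NK cell line that lacks CD16a, after lentiviral transduction and without a stimulus. Each construct stood under the constitutive hEF1A promoter, and eGFP-positive cells were sorted and expanded. CTRL cells carried eGFP alone. hnCD16 cells carried a high-affinity, non-cleavable CD16a. FR1 cells carried its extracellular and transmembrane parts fused to the signaling domains of 2B4, DAP10 and CD3ζ, and FR2 cells carried the same fusion without 2B4. Each of the 4 groups had 3 libraries, 12 in all, and nothing in the sample descriptions says that they came from separate transductions or cultures, so p-values measure the spread between these libraries, which may be technical. The methods state in general that in vitro data came from independent experiments, without naming the RNA libraries.

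IL-12 from antigen-presenting cells binds a receptor of IL12RB1 and IL12RB2, whose kinases TYK2 and JAK2 phosphorylate STAT4, and IL-18 binds IL18R1, which then recruits IL18RAP and signals through MYD88 and the IRAK kinases. NK cells that receive both signals are known for strong IFN-γ production. IL-10 binds IL10RA, pairs it with the widely expressed IL10RB and activates STAT3 through JAK1 and TYK2, and is known both to restrain myeloid cells and to support cytotoxic lymphocytes.

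The libraries held 17714566 to 18729019 counts, and a gene at the floor of 3 counts was at 0.149 to 0.174 CPM (counts scaled to library size), a limit that covers counting error only. FCGR3A, the gene of CD16a, had 0 counts in the CTRL libraries, 453 to 480 (hnCD16), 559 to 567 (FR1) and 1012 to 1132 (FR2). The libraries fell into pairs of groups. Pearson r across genes on log2(TPM + 1) averaged 0.995 between CTRL and hnCD16 and between FR1 and FR2, but 0.867 between either FR group and either of the others. The NK cell label held only in part, and less in the CTRL and hnCD16 libraries. Of 14 NK cell markers, 4 reached 1 CPM in all libraries of CTRL and of hnCD16, 9 in FR1 and 10 in FR2. Their summed level was 56.0 to 58.1 CPM (CTRL), 57.8 to 64.2 (hnCD16), 3512 to 3678 (FR1) and 3408 to 3511 (FR2). GZMB alone made up 2780 CPM of that sum in FR1 and 2557 in FR2 on average. The members did not all move one way. NCR1 had at most 5 counts in a CTRL or hnCD16 library and at least 436 in an FR library, whereas NCR3 fell from 5.58 CPM in hnCD16 to 0.825 in FR1 and 0.131 in FR2, and CD7 from 30.2 to 0.825 and 1.17. TYROBP had 2 to 6 counts in CTRL and hnCD16 libraries and 0 in the FR libraries. The summed level of 8 T cell markers ran the other way, at 670 to 784 CPM (CTRL), 751 to 809 (hnCD16), 36.3 to 40.2 (FR1) and 41.7 to 43.1 (FR2). CD3D, CD4, CD6, CD8A and CD8B had 3 counts or fewer in every FR library. CD3E was lower but stayed expressed, at 134 CPM (CTRL), 104 (hnCD16), 35.2 (FR1) and 39.6 (FR2) on average. Of 4 B cell markers in the table, PAX5 rose from at most 5 counts in CTRL and hnCD16 to at least 656 in the FR libraries, whereas CD79A and CD79B had at least 72 counts in CTRL and hnCD16 libraries and at most 7 in FR libraries. These markers move with every difference between the FR groups and the others given below, and their part in it was not tested. The construct and the cell pool that received it cannot be told apart, since the number of transduced pools behind the libraries of a group is not stated.

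The genes differed mainly between these pairs of groups. edgeR called a gene when its log2 fold change reached 1 in either direction with an adjusted p up to 0.05. Differences are given as log2 fold change ± standard error. Compared with hnCD16, 8 of the 9 genes were called higher in FR1 and 8 in FR2. Of all tested genes, 38.3% were called in FR1 (18.7% higher and 19.6% lower) and 39.5% in FR2 (19.6% higher and 19.8% lower). Compared with CTRL, 8 were called higher in FR1 (of all tested genes, 38% were called, 18.3% higher and 19.8% lower) and 8 in FR2 (38.2% called, 18.7% higher and 19.6% lower). None of the 9 was called lower in these comparisons. Without the fold threshold all 9 passed the adjusted p in each of the 4, as did 79.1% of all tested genes in FR1 and 80.1% in FR2 against hnCD16 (40% and 41.4% lower) and 79.9% and 80.2% against CTRL (40.8% and 41.7% lower). The 7 genes IL12RB1, IL12RB2, IL18R1, IL18RAP, STAT4, IL10 and IL10RA were called higher in all 4 comparisons, as were 15.3% of all tested genes. IL10RB was called only against CTRL and STAT3 only against hnCD16. In the other comparisons both were higher in the FR groups but under the fold threshold. There the log2 fold changes were 0.71 (FR1) and 0.90 (FR2) for IL10RB and 0.86 and 0.89 for STAT3. The median log2 fold change of the 9 genes was 5.94 for FR1 and 6.15 for FR2 against hnCD16, and 6.40 and 6.61 against CTRL, where the medians over all tested genes lay between -0.04 and -0.01. The 4 comparisons share groups and are not independent of each other. The 3 libraries of each FR group lay apart from the 3 of hnCD16 and of CTRL for all 9 genes, as did 80.8% (FR1) and 81.7% (FR2) of all tested genes against hnCD16 and 80.5% and 81.2% against CTRL. In bulk RNA, fewer cells that express a gene and less of its RNA per cell cannot be told apart.

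**Figure D1:**
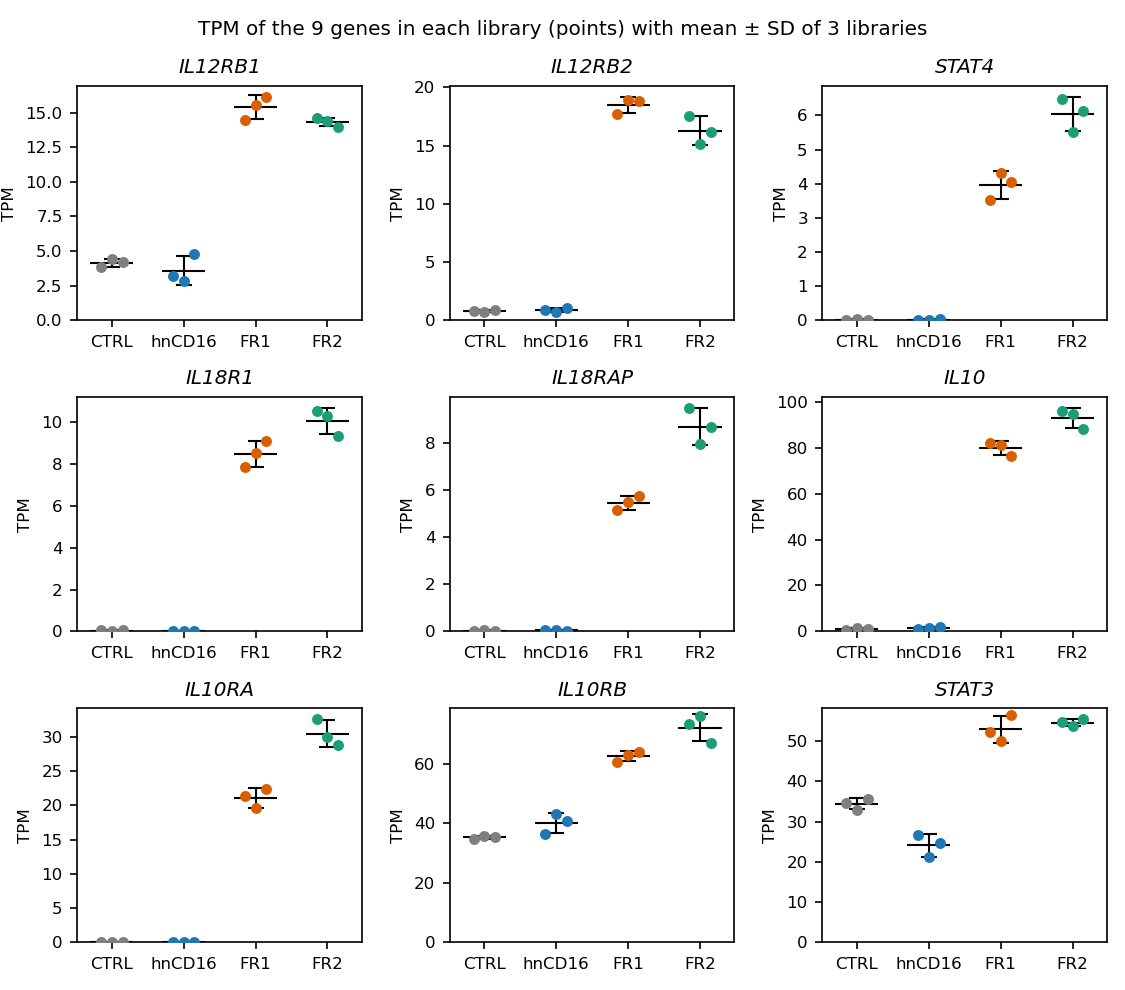
TPM (vertical axes, each from 0) of the 9 genes in the 12 libraries, with points for libraries and bars for the mean ± SD of 3 libraries per group. IL18R1, IL18RAP, STAT4 and IL10RA lie at or near 0 in CTRL and hnCD16, whereas IL10RB and STAT3 are above 20 TPM in every library.

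Of the IL-12 receptor chains, IL12RB1 (NCBI Gene 3594), which is shared with the IL-23 receptor, lies on the minus strand of chromosome 19 from 18058995 to 18098944 (GRCh38, GENCODE v44) with 17 exons in its canonical transcript. Its TPM was 3.85, 4.43 and 4.22 in the CTRL libraries, 3.19, 2.84 and 4.77 in hnCD16, 14.4, 15.6 and 16.1 in FR1, and 14.6, 14.4 and 14.0 in FR2. It was thus detected in all libraries, and the FR libraries lay above the others without overlap. FR1 exceeded hnCD16 by 2.29 ± 0.108 (edgeR, adjusted p = 1.19e-12) and FR2 by 2.18 ± 0.109 (adjusted p = 2.64e-12), while CTRL was exceeded by 2.22 and 2.11. IL12RB2 (NCBI Gene 3595), the signaling chain that docks STAT4 and is induced on activated lymphocytes, lies on the plus strand of chromosome 1 from 67307364 to 67398724 with 17 exons. Its TPM was 0.77, 0.76 and 0.91 in CTRL, 0.87, 0.68 and 1.04 in hnCD16, 17.7, 19.0 and 18.9 in FR1, and 17.6, 15.1 and 16.2 in FR2. The FR libraries stood far above the others without overlap. Relative to hnCD16, IL12RB2 in FR1 was higher by 4.34 ± 0.0873 (edgeR, adjusted p = 6.88e-18) and in FR2 by 4.23 ± 0.0878 (adjusted p = 9.68e-18), and relative to CTRL by 4.51 and 4.4. The ratio of IL12RB2 to IL12RB1 in TPM was 0.196 ± 0.0223 (CTRL), 0.243 ± 0.0276 (hnCD16), 1.21 ± 0.0317 (FR1) and 1.14 ± 0.0774 (FR2) (SD, n = 3 libraries).

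STAT4 (NCBI Gene 6775), the transcription factor of the IL-12 receptor, lies on the minus strand of chromosome 2 from 191029576 to 191151596 with 24 exons. It had 1 count in 1 library of CTRL and in 1 of hnCD16 and 0 in the others. The FR1 libraries had 92, 112 and 101 counts and the FR2 libraries 163, 142 and 152, or 3.52, 4.32 and 4.04 TPM in FR1 and 6.49, 5.51 and 6.12 in FR2. STAT4 was thus not detectable above the floor in CTRL and hnCD16 at this depth. The ratio of its CPM to those of hnCD16, taken over 1 count in that group, in FR1 was 326 (exact 95% interval 58.1 to 12928, for counting error only) and 480 in FR2 (85.8 to 19007), with edgeR adjusted p of 2.44e-12 and 2.36e-13. Against CTRL, again over 1 count, the ratio was 349 (interval 62.2 to 13842) in FR1 and 514 in FR2.

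The IL-18 receptor genes stand side by side on the plus strand of chromosome 2. IL18R1 (NCBI Gene 8809), the ligand-binding chain, spans 102311529 to 102398777 with 11 exons, and IL18RAP (NCBI Gene 8807), the accessory chain, spans 102418689 to 102452565 with 10 exons, 19.9 kb further on. Both were at the floor in CTRL and hnCD16. IL18R1 had 1, 0 and 1 counts in CTRL, 1, 0 and 0 in hnCD16, 305, 317 and 329 in FR1 and 406, 387 and 350 in FR2. IL18RAP had 0, 1 and 0 counts in CTRL, 1 in each hnCD16 library, 152, 155 and 165 in FR1 and 256, 238 and 255 in FR2. Every FR library thus had over 100 counts of both chains. For IL18R1, the ratio of CPM to hnCD16 was 1017 in FR1 (exact 95% interval 182 to 40222) and 1201 in FR2, over 1 count in hnCD16, and the ratio to CTRL was 545 (interval 150 to 4503) and 643, over 2 counts. For IL18RAP it was 168 in FR1 (interval 57.2 to 819) and 262 in FR2, over 3 counts in hnCD16, and 541 and 843 over 1 count in CTRL. edgeR's adjusted p for these FR comparisons lay between 2.21e-16 and 1.72e-14. In TPM, IL18R1 stood at 8.50 ± 0.625 in FR1 and 10.1 ± 0.627 in FR2 and IL18RAP at 5.46 ± 0.286 and 8.69 ± 0.770 (SD, n = 3 libraries), a ratio of 1.56 ± 0.0334 in FR1 and 1.16 ± 0.117 in FR2.

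IL10 (NCBI Gene 3586) lies on the minus strand of chromosome 1 from 206767602 to 206774541 with 5 exons and encodes a cytokine made by activated T cells, NK cells and myeloid cells. Its TPM was 0.64, 1.53 and 1.25 in CTRL, 0.98, 1.39 and 1.9 in hnCD16, 82.2, 81.2 and 76.6 in FR1, and 96.1, 94.8 and 88.1 in FR2. IL10 was low but detected in CTRL and hnCD16, with 10 to 30 counts, and had 1232 to 1568 counts in the FR libraries. IL10 rose 61.4-fold from hnCD16 to FR1 (5.94 ± 0.127, edgeR, adjusted p = 1.58e-17) and 70.9-fold to FR2 (6.15 ± 0.126, adjusted p = 7.86e-18). From CTRL the rise was 6.40 and 6.61 as log2 fold change. In the FR groups IL10 had the highest TPM of the 9 genes. Myeloid cells are another source of IL10. The summed level of 8 myeloid markers was 3.22 to 4.43 CPM (CTRL), 3.46 to 4.2 (hnCD16), 6.02 to 7.25 (FR1) and 10.2 to 10.9 (FR2), and the members differed. CSF1R, the receptor of M-CSF, stood at 0.647 (hnCD16), 1.96 (FR1) and 5.45 CPM (FR2), and the integrin chain ITGAM at 0.232, 1.88 and 2.04 CPM, and edgeR called both higher in all 4 comparisons. LYZ was called in none, and CD14, S100A8 and S100A9 had at most 2, 1 and 10 counts in any library, with S100A8 and S100A9 at 0 in the FR libraries. The part of these markers in the IL10 result was not tested.

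IL10RA (NCBI Gene 3587), the ligand-binding chain of the IL-10 receptor, lies on the plus strand of chromosome 11 from 117986370 to 118003037 with 7 exons. It had 0, 0 and 1 counts in CTRL and 1, 0 and 1 in hnCD16, and its TPM was 21.4, 19.6 and 22.4 in FR1 and 32.6, 30.0 and 28.8 in FR2. Nearly all of its reads in the series thus lay in the FR libraries. The ratio of its CPM to hnCD16 was 1245 in FR1 (exact 95% interval 344 to 10283) and 1787 in FR2, over 2 counts in hnCD16, and the ratio to CTRL was 2665 and 3827, over 1 count. The adjusted p from edgeR lay between 1.35e-18 and 8.93e-18 in these comparisons. IL10RB (NCBI Gene 3588), the second chain, which also serves the receptors of IL-22, IL-26 and type III interferons, lies on the plus strand of chromosome 21 from 33266367 to 33311420 with 7 exons. Its TPM was 34.9, 35.7 and 35.3 in CTRL, 36.6, 43.2 and 40.8 in hnCD16, 60.6, 63.0 and 64.0 in FR1, and 73.3, 76.0 and 67.1 in FR2. It was expressed in every library, and the FR libraries lay above the others without overlap. Relative to CTRL it rose by 1.05 ± 0.0631 in FR1 (edgeR, adjusted p = 4.30e-11) and by 1.24 ± 0.0627 in FR2. Relative to hnCD16 the values of 0.71 ± 0.0621 (FR1) and 0.90 ± 0.0617 (FR2) stayed under the fold threshold, with edgeR adjusted p of 8.25e-09 and 2.36e-10. The call in FR1 against CTRL was lost when counts were scaled by library size only (log2 fold change 0.85) and with limma on log2(TPM + 1) (0.81).

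STAT3 (NCBI Gene 6774), the transcription factor of the IL-10 receptor and of many others, lies on the minus strand of chromosome 17 from 42313324 to 42388540 with 24 exons. Its TPM was 34.6, 32.9 and 35.7 in CTRL, 26.7, 21.1 and 24.6 in hnCD16, 52.3, 49.9 and 56.4 in FR1, and 54.8, 53.6 and 55.4 in FR2. The 4 groups ran from hnCD16 through CTRL to FR1 and FR2, which overlapped. Relative to hnCD16, STAT3 rose by 1.22 ± 0.0724 in FR1 (edgeR, adjusted p = 3.23e-11) and by 1.25 ± 0.0723 in FR2 (adjusted p = 2.11e-11). Relative to CTRL the values of 0.86 ± 0.071 (FR1) and 0.89 ± 0.071 (FR2) stayed under the fold threshold, with edgeR adjusted p of 3.82e-09 and 2.27e-09.

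**Figure D2:**
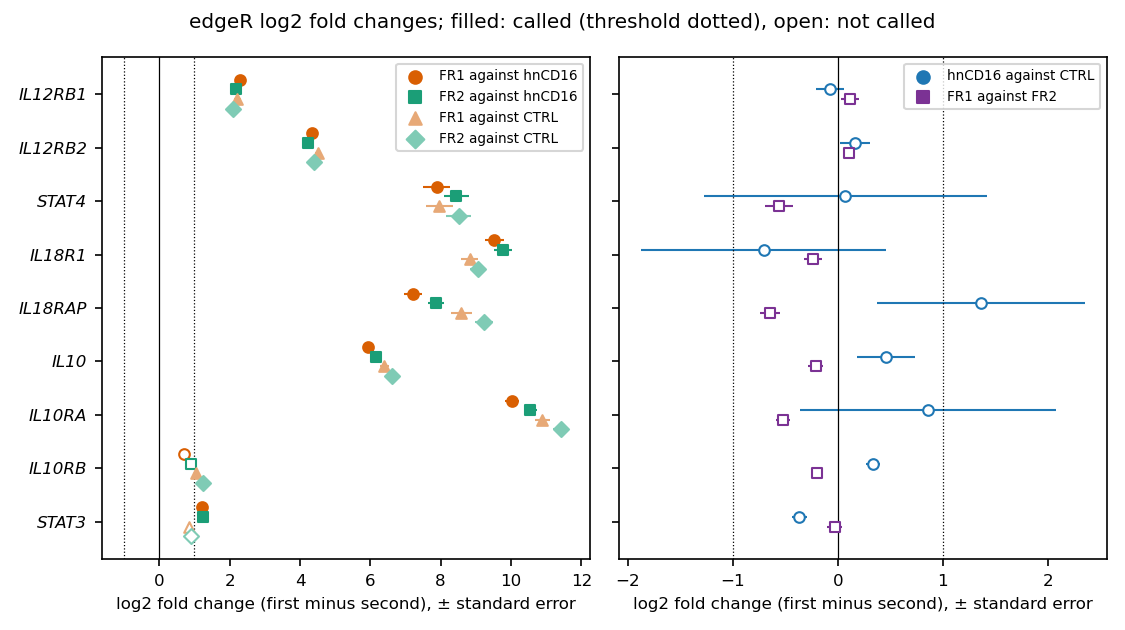
edgeR log2 fold changes (horizontal axes) of the 9 genes with their standard errors, for the 4 comparisons of an FR group with hnCD16 or CTRL on the left and for hnCD16 against CTRL and FR1 against FR2 on the right, each as the first group minus the second. On the left 7 genes are filled, that is called, in all 4 comparisons, on the right none is, and the wide bars belong to genes with 0 or 1 count per library, whose fitted values depend on edgeR's prior count.

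Within a group, levels were compared per length in TPM. In FR1 and in FR2 the order was IL10, IL10RB, STAT3, IL10RA, IL12RB2, IL12RB1, IL18R1, IL18RAP and STAT4 from high to low. The ranges over 3 libraries of neighbours in that order overlapped only for IL18R1 and IL18RAP in FR2. In CTRL, IL10RB and STAT3 came first and overlapped, followed by IL12RB1, by IL10 and IL12RB2, which overlapped, and by the 4 genes near 0. In hnCD16 the order of the first 5 genes was the same, and IL10RB, at 40.2 ± 3.38 TPM, lay above STAT3, at 24.1 ± 2.81 TPM (SD, n = 3 libraries), without overlap. Per length, STAT3 exceeded STAT4 by a ratio of 13.5 ± 1.70 in FR1 and 9.07 ± 0.645 in FR2, and IL10RB exceeded IL10RA by 2.97 ± 0.219 and 2.37 ± 0.146.

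Between hnCD16 and CTRL, none of the 9 genes was called by edgeR, by DESeq2 or by limma, and edgeR called 0.527% of all tested genes (0.212% higher and 0.315% lower in hnCD16). Of these calls 40.3% were higher in hnCD16, and 23.2% when counts were scaled by library size only. At an unadjusted p under 0.05, 2 genes passed, and both also passed the adjusted p without the fold threshold, as did 43% of all tested genes (21.4% lower in hnCD16). They were IL10RB, with a log2 fold change of 0.34 (standard error 0.0646, edgeR adjusted p = 0.000592), and STAT3, with -0.37 (standard error 0.073, edgeR adjusted p = 0.000776). The 3 hnCD16 libraries did not overlap with the 3 CTRL libraries in CPM for 3 of the 9 genes, IL10RB, STAT3 and IL18RAP, compared with 47.7% of all tested genes, and IL18RAP rested on 3 counts against 1. The ratio of CPM of hnCD16 to CTRL was 0.953 for IL12RB1 (exact 95% interval 0.790 to 1.15), 1.12 for IL12RB2 (0.872 to 1.44) and 1.38 for IL10 (0.946 to 2.02), intervals that cover counting error only. For the genes with 1 to 3 counts per group, a difference between hnCD16 and CTRL was not detectable at this depth.

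The FR1 and FR2 constructs differ by the 2B4 domain. The libraries also differ in FCGR3A, with 559 to 567 counts in FR1 and 1012 to 1132 in FR2. The domain, this level and the cell pool cannot be told apart. None of the 9 genes was called between them by edgeR, DESeq2 or limma, and edgeR called 1.93% of all tested genes (0.439% higher and 1.49% lower in FR1). Without the fold threshold, 6 of the 9 genes passed the adjusted p (the same 6 at an unadjusted p under 0.05), all lower in FR1, where 36.2% of all tested genes passed, 18.5% in that direction. IL18RAP was 1.56-fold higher in FR2 (log2 fold change of FR1 minus FR2 -0.64, standard error 0.0947, edgeR adjusted p = 6.30e-05), STAT4 1.47-fold (-0.56, standard error 0.133, edgeR adjusted p = 0.00333) and IL10RA 1.44-fold (-0.52, standard error 0.068, edgeR adjusted p = 1.86e-05). These 3 passed the adjusted p in every alternative that tested them and without any 1 library. The differences of IL18R1 (-0.24, edgeR adjusted p = 0.0372), IL10 (-0.21, edgeR adjusted p = 0.0317) and IL10RB (-0.19, edgeR adjusted p = 0.0170) were smaller. IL18R1 missed the adjusted p with DESeq2 (0.0833), with limma on log2(TPM + 0.1) (0.353) and without any 1 of 5 of the 6 FR libraries. IL10 missed it with limma on log2(TPM + 1) (0.310) and log2(TPM + 0.1) (0.566) and without any 1 of 4 of them, and IL10RB without FR2 replicate 2 (edgeR adjusted p = 0.108). For IL12RB1 (0.12, standard error 0.0864, edgeR adjusted p = 0.330), IL12RB2 (0.11, standard error 0.0578, edgeR adjusted p = 0.162) and STAT3 (-0.03, standard error 0.0695, edgeR adjusted p = 0.786) the difference did not pass. In CPM, the FR1 and FR2 libraries did not overlap for 8 of the 9 genes, STAT3 being the other, and for 50.1% of all tested genes.

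To show the sequence at the starts of the genes that were at the floor in CTRL and hnCD16 and of IL10, the 250 bases before the RefSeq start (GRCh38.p14) are given 5′ to 3′ on the strand of the gene, with STAT3, expressed in every library, for comparison. The windows are chr2:102355546-102355795 (plus strand), chr2:102418371-102418620 (plus), chr2:191151597-191151846 (minus), chr1:206772495-206772744 (minus), chr11:117989695-117989944 (plus) and chr17:42388443-42388692 (minus). Capitals mark the AP-1 letters TGANTCA in STAT4 and IL10RA and the RUNX letters TGTGGT, read on the other strand, in IL18RAP.
IL18R1: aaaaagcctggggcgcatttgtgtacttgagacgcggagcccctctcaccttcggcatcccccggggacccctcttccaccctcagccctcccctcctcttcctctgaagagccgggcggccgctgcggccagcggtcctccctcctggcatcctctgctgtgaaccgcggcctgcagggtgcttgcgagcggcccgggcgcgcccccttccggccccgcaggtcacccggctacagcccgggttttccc
IL18RAP: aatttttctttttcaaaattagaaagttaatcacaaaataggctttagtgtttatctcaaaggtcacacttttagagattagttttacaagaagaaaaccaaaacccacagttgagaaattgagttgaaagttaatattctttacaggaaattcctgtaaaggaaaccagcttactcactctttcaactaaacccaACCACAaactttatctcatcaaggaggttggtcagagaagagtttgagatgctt
STAT4: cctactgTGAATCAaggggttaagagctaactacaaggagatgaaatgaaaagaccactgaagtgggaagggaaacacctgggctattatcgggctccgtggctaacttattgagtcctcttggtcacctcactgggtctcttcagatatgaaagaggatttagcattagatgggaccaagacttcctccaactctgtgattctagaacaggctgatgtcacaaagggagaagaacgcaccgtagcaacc
IL10: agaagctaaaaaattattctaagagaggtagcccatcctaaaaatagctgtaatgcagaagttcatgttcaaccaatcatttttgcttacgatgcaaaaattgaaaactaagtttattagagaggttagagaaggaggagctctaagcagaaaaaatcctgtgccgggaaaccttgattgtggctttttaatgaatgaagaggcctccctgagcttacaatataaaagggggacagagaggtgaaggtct
IL10RA: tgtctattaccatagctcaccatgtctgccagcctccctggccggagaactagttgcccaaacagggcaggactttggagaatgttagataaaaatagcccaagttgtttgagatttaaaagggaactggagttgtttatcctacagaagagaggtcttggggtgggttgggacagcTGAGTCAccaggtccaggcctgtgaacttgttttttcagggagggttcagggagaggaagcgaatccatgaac
STAT3: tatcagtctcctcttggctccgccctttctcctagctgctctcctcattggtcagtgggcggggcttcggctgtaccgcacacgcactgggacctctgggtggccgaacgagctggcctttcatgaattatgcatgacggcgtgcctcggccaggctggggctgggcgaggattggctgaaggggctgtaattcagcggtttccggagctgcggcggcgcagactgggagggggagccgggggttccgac
The RefSeq windows of IL18R1, IL10 and IL10RA lie wholly inside the GENCODE gene span, which starts at a longer transcript. The sequences differ in CpG content. IL18RAP had 0 CpG in its window, IL10 and IL10RA 2 each and STAT4 4, whereas IL18R1 had 21 and STAT3 18. The other genes had 9 (IL12RB2), 12 (IL12RB1) and 17 (IL10RB). Over 27305 RefSeq promoters the median was 11, and 35.0% had at most 4 CpG, a limit chosen after these values were seen.

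Motifs were searched on both strands in windows from 250 bases before to 50 bases after the start. AP-1 letters TGANTCA occurred in 2 of the 9 genes, 243 bases before the start of STAT4 and 73 bases before that of IL10RA, and in 7.76% of all promoters. RUNX letters TGTGGT occurred in 3 of the 9, IL12RB2, IL18RAP and IL10, the last of them after the start, and in 13.1% of all promoters. The STAT letters TTCNNNGAA occurred only in IL10RB, after its start, and in 7.88% of all promoters, and the T-box letters GGTGTGA in none of the 9 and in 3.43% of all promoters. No promoter of the 9 held matches of more than 1 of these motifs, so none overlapped, and a match is a description of the letters and not a bound site.

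RSEM divides the reads of a gene between its listed transcripts by estimate, so transcript shares are a description. IL10RB had 1 listed transcript. IL10 had 2, and NM_000572 held 87.6% ± 5.49 of its counts in FR1 and 89.0% ± 1.87 in FR2 (SD, n = 3 libraries). For STAT4, NM_003151 held 98.3% ± 3.0 of counts in FR1. For IL10RA, NM_001558 held 74.0% ± 9.99 in FR1 and 82.0% ± 7.69 in FR2. IL12RB1 had 10 listed transcripts, and NM_153701 held most counts in each group on average, 68.7% (CTRL), 66.0% (hnCD16), 54.8% (FR1) and 52.2% (FR2). For IL12RB2, IL18R1, IL18RAP and STAT3, with 11 to 23 listed transcripts, the split also moved between libraries of 1 group, and no share is given.

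The nearest protein-coding genes on either side are given as a description, and whether the rises ran along the chromosome was not tested. Against hnCD16, 18.7% of all tested genes were called higher in FR1 and 19.6% in FR2, and 19.6% and 19.8% were called lower. MAPKAPK2, a kinase that stabilizes cytokine mRNAs, 33.3 kb from IL10, rose by 2.40 (FR1) and 2.98 (FR2) on the log2 scale against hnCD16. IL23R, 47.4 kb from IL12RB2 and the partner of IL12RB1 in the IL-23 receptor, rose with 2.61 and 2.83, and ARRDC2, next to IL12RB1, with 1.99 and 2.31. Next to IL10RA, SMIM35 at 0.596 kb and TMPRSS13 were also called higher, at low counts. IFNAR2, 0.691 kb from IL10RB and a chain of the type I interferon receptor, stood at 0.03 (FR1) and 0.33 (FR2) on that scale and was not called. IFNAR1 on the other side of IL10RB, SLC9A4 next to IL18RAP, SERBP1 next to IL12RB2, PIK3R2 next to IL12RB1 and STAT5A next to STAT3 were not called in any of the 4 comparisons. CAVIN1, on the other side of STAT3, fell by 1.81 on the log2 scale in FR1 and by 1.57 in FR2.

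**Figure D3:**
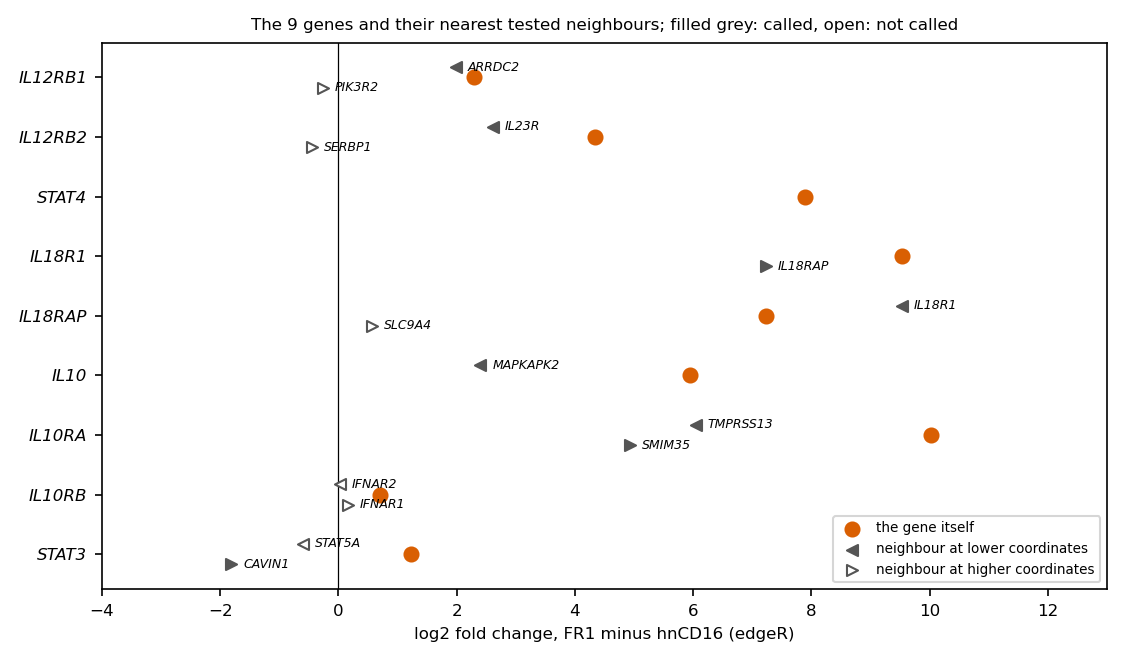
edgeR log2 fold change of FR1 minus hnCD16 (horizontal axis) for the 9 genes (orange) and the nearest protein-coding genes on each side (triangles, filled where called). Neighbours that were not tested and those of STAT4 are not drawn, and 1 of the 9 genes, IL10RB, was not called in this comparison.

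Whether counting used strand is not given in the sources used here, so genes that overlap on opposite strands cannot be told apart with certainty. IL10 overlaps IL19, a cytokine of the same family, on the other strand, and IL19 had 0 to 2 counts in CTRL and hnCD16, 4 to 16 (FR1) and 26 to 30 (FR2). IL12RB1 overlaps MAST3 on the other strand, which had 44 to 94 counts in CTRL and hnCD16 and 179 to 334 in the FR libraries. IL18R1 overlaps IL1RL1, the IL-33 receptor, on the same strand, which had 1 to 5 counts in every group. IL10RB shares sequence with the read-through gene IFNAR2-IL10RB, for which the gene table gave no separate row here.

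Other genes of the pathways were listed by their role. Beside the counts of each list below, 15.3% of all tested genes were called higher and 16.4% lower in all 4 comparisons. Of 7 tested genes of the IL-12 family (10 listed), 3 rose in all 4 comparisons, 1 fell, 2 were called in none and IL27RA in some. IL6ST, the gp130 chain of the IL-27 receptor, rose from 2.37 TPM (hnCD16) to 59.3 (FR1) and 63.7 (FR2), IL12A, which encodes the p35 chain of IL-12, rose from 0.490 to 14.8 and 15, and IL23R rose at low levels. IL12B, which encodes the other chain of IL-12, had 3 counts or fewer in every library and was not tested. IL23A fell, from 2.65 TPM to 0.717 and 0.710. The receptor kinases JAK2 and TYK2 were not called in any of the 4. The list's median log2 fold change ran from 0.60 to 1.06 in the 4 comparisons.

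Of 14 tested genes of the IL-18 and IL-1 family (19 listed), 5 rose in all 4 comparisons, 1 fell and 7 were called in none. Of all tested genes, 15.3% rose and 16.4% fell by the same calls. Among the receptors, IL1RAP, the accessory chain of the IL-1 receptor, rose from 19.4 TPM (hnCD16) to 226 (FR1) and 302 (FR2). IL1R1, the signaling IL-1 receptor, rose from 0.163 to 35.6 and 33.2 TPM, and the decoy receptor IL1R2, with 0 counts in CTRL and hnCD16, exceeded hnCD16 at least 21-fold in FR1 and, in FR2, at least 37.6-fold, against the floor of 3 counts per library. The kinase IRAK1 and CASP1, the protease that matures IL-18, rose as well. SIGIRR, an inhibitory receptor of the family, fell from 27.3 TPM (hnCD16) to 5.66 (FR1) and 9.46 (FR2). IL18 itself, its decoy IL18BP, the adaptor MYD88 and the kinases IRAK2, IRAK3, IRAK4 and MAP3K7 were not called in any of the 4 comparisons, and the adaptor TRAF6 was called lower only in FR2. The median log2 fold change was between -0.02 and 0.18.

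Of 5 tested genes of the IL-10 family (11 listed), JAK1 and IL19 rose in all 4 comparisons. JAK1, the kinase of IL10RA, rose from 25.9 TPM (hnCD16) to 54.1 (FR1) and 53.0 (FR2), and IL19 is uncertain for the overlap above. IL26 was called lower in FR1 only and IL20RB in FR2 only. The median log2 fold change was between -0.02 and 0.18. Of the other STAT genes, STAT2 was called higher in FR2 only, and STAT5A, STAT5B and STAT6 were called in none of the 4 comparisons. Of 9 brakes of cytokine signaling, SOCS3, SOCS1, PIAS3 and CISH rose in all 4. SOCS3, an inhibitor of gp130 and JAK signaling, rose from 0.163 TPM (hnCD16) to 86.4 (FR1) and 122 (FR2). It was the only gene of these lists that was called higher in hnCD16 than in CTRL, on 14 counts against 2, a ratio of CPM of 7.49 (exact 95% interval 1.72 to 67.9). SOCS1 rose from 0.450 to 37.8 and 44.8 TPM. The phosphatases PTPN1, PTPN2 and PTPN11 were called in none, and PTPN6 and SOCS2 were called lower in some of the comparisons. The list's median log2 fold change lay between 0.29 and 0.71.

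**Figure D4:**
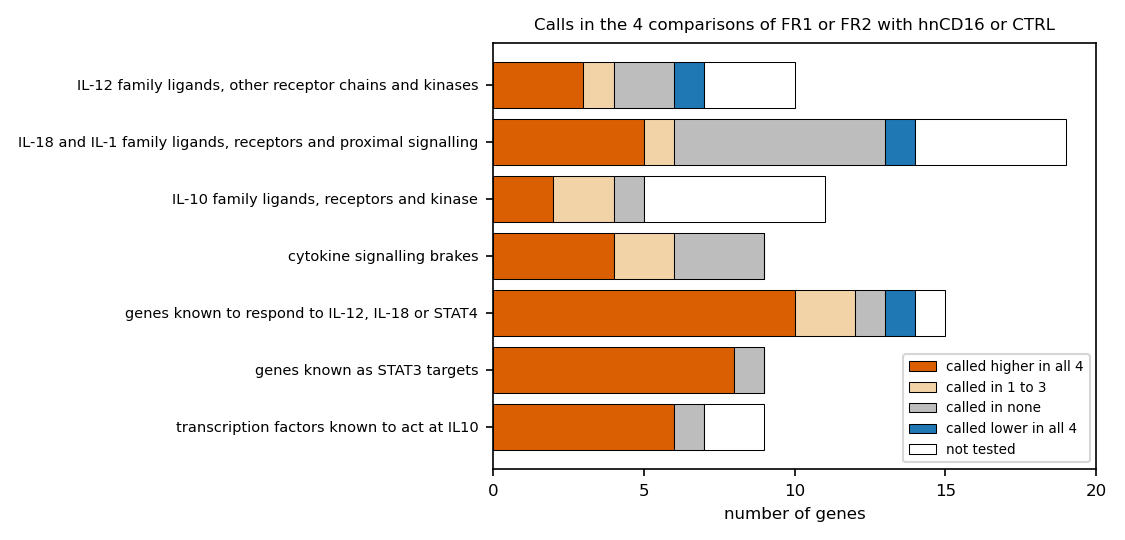
Number of genes (horizontal axis) on each list by their calls in the 4 comparisons of FR1 or FR2 with hnCD16 or CTRL, where not tested includes genes not listed in the table. In the lists of responsive genes, STAT3 targets and transcription factors at IL10, the genes called higher in all 4 are 10 of 14, 8 of 9 and 6 of 7 of the genes tested. All lists were chosen with earlier results of these data known.

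The downstream lists stand beside a share of 15.3% of all tested genes called higher in all 4 comparisons. These lists were chosen with earlier results of these data known, so no conclusion is drawn from the difference to that share. Of 14 tested genes known to respond to IL-12, IL-18 or STAT4 (15 listed), 10 rose in all 4 comparisons. GZMB, the protease granzyme B, was at 1.49 TPM in hnCD16, 5551 in FR1 and 5145 in FR2, and IFNG, which encodes IFN-γ, had 0 to 2 counts in every CTRL and hnCD16 library and 3917 to 4478 in every FR library. PRF1, which encodes perforin, rose from 0.300 TPM to 293 and 379, and TBX21, the transcription factor T-bet, from 0.0633 to 53.1 and 48.3. IL2RA, the high-affinity chain of the IL-2 receptor, rose from 0.167 TPM to 43.9 and 97.0, and it was also lower in hnCD16 than in CTRL (log2 fold change -1.18) and lower in FR1 than in FR2 (-1.13). CD69, an early activation marker, fell from 15.5 TPM (hnCD16) to 0.397 (FR1) and 0.337 (FR2). IRF1 was not called in any of the 4 comparisons, and EOMES and GADD45B were called in some. Over the list the median log2 fold change was 7.98 (FR1) and 7.91 (FR2) relative to hnCD16, or 4.78 and 4.75 when genes with 0 counts in hnCD16 were set to their lower bound. Relative to CTRL it was 6.88 and 7.32, or 5.88 and 5.86 with such bounds. GZMB and PRF1 are also among the NK cell markers above.

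Of 9 genes known as STAT3 targets, 8 rose in all 4 comparisons and BCL2L1 was called in none. SOCS3, also counted among the brakes above, is 1 of the 8. MCL1, a survival factor of the BCL2 family, rose from 51.6 TPM (hnCD16) to 589 (FR1) and 549 (FR2), HIF1A, the oxygen-regulated transcription factor, from 66.0 to 173 and 153, JUNB, an AP-1 subunit, from 8.23 to 145 and 192, and the kinase PIM1 from 0.393 to 112 and 118. BCL3 rose from 0.357 TPM to 93.4 and 102. The list's median log2 fold change was 5.57 in FR1 and 5.52 in FR2 against hnCD16 and 4.93 and 4.88 against CTRL. Of 7 tested transcription factors known to act at IL10 (9 listed), 6 rose in all 4 comparisons. IRF4 rose from 0.170 TPM (hnCD16) to 231 (FR1) and 239 (FR2), BATF, which pairs with IRF4, from 10.4 to 125 and 125, BHLHE40 from 0.630 to 88.8 and 86.8, NFIL3 from 5.12 to 39.5 and 39.4, and PRDM1, the transcription factor Blimp-1, from 0.0267 to 23.2 and 22.8. ETS1, at 77.1 TPM in hnCD16, was at 129 in FR1 and 105 in FR2 and was not called, and MAF, known as a direct activator of IL10, was not tested, at 0.0567 TPM or less in every group mean. The median log2 fold change of this list was 4.16 and 4.0 against hnCD16 and 4.36 and 4.19 against CTRL.

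For each of the 9 genes, the gene with the nearest pattern was taken by Euclidean distance over the 12 values of log2(TPM + 1), a description that mainly reflects the pairs of groups. IL1R2 was nearest to IL18RAP (distance 0.213), DSG4 to IL18R1 (0.241), PRSS23 to STAT4 (0.329) and BMF to IL10RA (0.351), all of which had at most 1 count in every CTRL and hnCD16 library. NUP210 was nearest to STAT3 (0.290), PEX2 to IL10RB (0.312), FRMD4B to IL12RB1 (0.502), HIP1 to IL12RB2 (0.550) and THEM4 to IL10 (0.816). THEM4 stood at 0.933 ± 0.0451 TPM in hnCD16, 83.6 ± 0.816 in FR1 and 85.7 ± 1.29 in FR2 (SD, n = 3 libraries).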

How the data were processed

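RNA-seq of 4 groups of transduced YT cells with 3 libraries each was analysed. The authors used SOAPnuke for trimming, HISAT2 2.1.0 for alignment to GRCh38.p13 and RSEM 1.3.1 for quantification, and the deposited expected counts are RSEM's estimated counts per gene and transcript, without normalization. The deposited TPM values are the authors' RSEM output, scaled for transcript length and depth. Bowtie2 2.3.4.3 and DESeq2 1.4.5 are also named in the submitters' processing notes. Strand and sequencing batch are not given in the sources used here.

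Expected counts were rounded and tested with edgeR 4.0.16 in R 4.3.3 (filterByExpr, TMM, quasi-likelihood test, 1 fit of 4 groups, Benjamini-Hochberg over 13657 genes), and called at the thresholds of the study (log2 fold change of 1 or more in size, adjusted p up to 0.05). CPM uses TMM library sizes, and standard errors are the log2 fold change divided by the root of F. Ratios over 1 to 3 counts are ratios of summed counts with exact binomial 95% intervals. On simulated counts, 199 of 200 changed genes (99.5%) and 0 unchanged genes were called, among 12956 genes tested for simulated FR1 against hnCD16. The changed genes had mean counts above the floor before the change, and all had the same size of fold and the same set spread. The simulation therefore does not cover genes at the floor in a group, or comparisons in which a large share of genes was called. Replicate pairs differed by more than sampling noise (chi-square per gene 2.06 to 12.3). Alternatives were limma 3.58.1 (TPM with a pseudocount of 1 or 0.1, log2), DESeq2 1.42.0, scaling by RLE or library size, other filters on low counts, fits of 2 groups only, a block for the replicate number, calls without the fold threshold, and omission of each library.

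The 9 genes and all lists were chosen with earlier results of these data known. Of each list, genes called in the 4 comparisons with an FR group could be named, the highest mean TPM first and at most 6, with the nearest gene in pattern and the nearest listed protein-coding neighbours of each of the 9, and genes outside this rule were named after their values were seen. Coordinates are from GENCODE v44 (GRCh38) and sequences from RefSeq (GRCh38.p14), in which all 9 genes had a promoter entry. Results for some genes are not reported here. Figures used matplotlib 3.10.9.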

Additional observations from a re-analysis of the deposited data

How the results depend on the processing

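The counts of called genes in the 4 comparisons of an FR group with hnCD16 or CTRL stayed within 1.5 times of 8 in every alternative except 1. When at least 10 counts were required in every library, the count was 4 in each of them, because the 4 genes at the floor in CTRL and hnCD16 were no longer tested. Without the fold threshold, the adjusted p was passed by 2 genes in hnCD16 against CTRL and by 6 in FR1 against FR2. On omission of single libraries, the counts were 8 to 8 in the 4 comparisons and 0 to 0 in the other 2. IL10RB in FR1 against CTRL lost its call under library size scaling and with limma (0.85, 0.81 and 0.82). Under library size scaling, STAT4 in hnCD16 against CTRL had a log2 fold change of -0.0104, and the median of all genes shifted to -0.22 in FR1 against CTRL and -0.12 in hnCD16 against CTRL. Leaving out 1 library moved the log2 fold change of STAT4 in hnCD16 against CTRL from -1.79 to 1.84, that of IL12RB1 from -0.26 to 0.0475, and that of STAT3 in FR1 against FR2 from -0.0693 to 0.00502, none of which was called.
Over all genes, the 10-count filter left 2992, 3151, 2966 and 2965 calls in the 4 comparisons in place of 5234, 5391, 5196 and 5223, with fewer genes tested. In hnCD16 against CTRL the 72 calls became 8 with that filter, 47 in a fit of these groups alone and 32 with DESeq2. There limma called 6 on log2(TPM + 1) and 52 on log2(TPM + 0.1). In FR1 against FR2 the 264 calls became 73 with the filter, 219 in a fit of these groups alone and 206 with DESeq2. For this pair limma called 58 on log2(TPM + 1) and 197 on log2(TPM + 0.1). The cause was not tested.

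The replicate numbers share only a number. Same-numbered libraries deviated together with a mean r from -0.0349 to 0.254, and in no comparison was every r over 0.1. The fit with the replicate block called 8, 8, 8 and 8 of the 9 genes in the 4 comparisons and 0 in both others, as did the fit without it. Within each of the 4 comparisons both fits called the same 8 genes.

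Depth limits STAT4, IL18R1, IL18RAP and IL10RA, for which 0 to 1 count in a CTRL or hnCD16 library leaves the size of the rise uncertain by more than an order of magnitude, while its direction rests on 92 or more counts in every FR library.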
